A study of Homo sapiens with 3 samples.

Results

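The genes described here are 9 parts of the zinc and copper buffering system of the cell. They are the metallothionein genes MT2A, MT1X, MT1E, MT1F, MT1G, MT1M and MT1A, the transcription factor gene MTF1 and the zinc exporter gene SLC30A1. They were chosen by name, as the rows of a raw count table whose Ensembl identifiers carry these names in GENCODE release 29, with no filter on counts. All 9 were found among 58884 gene rows. Expression was measured by RNA sequencing in LNCaP, a long established line of androgen-responsive human prostate cancer cells. There were 3 libraries, 1 for each medium, from cells kept for 72 h in PPAT-CM, PVAT-CM or control-CM after 24 h in complete medium. CM is conditioned medium, which made up 50% of the culture medium in all 3 groups, with 2% fetal bovine serum. The submitters mark PPAT-CM as tumor and PVAT-CM as normal, and the series title reads PPAT as periprostatic adipose tissue. PVAT, the donors of the tissue and how control-CM was made are not explained in the sources used here.

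Metallothioneins are very small proteins that hold zinc, copper and cadmium in clusters of cysteines. When free zinc is high, the zinc finger factor MTF1 binds metal response elements in the promoters of metallothionein genes and of SLC30A1, which encodes an exporter of zinc in the plasma membrane. Metallothionein genes also respond to glucocorticoids and to oxidative stress. The prostate is a tissue of special interest for zinc, because normal prostate epithelium stores far more of it than prostate cancer cells do.

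The metallothionein genes are near copies of each other, and the coding sequences of the most read copy (MT2A), of the 2 members of the MT1 group with the most reads (MT1G and MT1X) and of a copy without reads (MT1E) are shown to make this visible. Each has 183 coding bases in 61 codons, of which 20 encode cysteine. The sequences are the spliced coding parts of GENCODE release 29 on GRCh38, without the stop codon, the coordinates include the introns, and capitals mark the cysteine codons.
MT2A (chr16:56608656-56609351, plus strand): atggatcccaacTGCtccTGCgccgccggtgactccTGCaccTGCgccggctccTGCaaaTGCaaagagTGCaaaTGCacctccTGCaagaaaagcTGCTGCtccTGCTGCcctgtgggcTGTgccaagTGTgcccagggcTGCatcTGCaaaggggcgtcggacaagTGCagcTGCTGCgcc
MT1G (chr16:56666882-56667993, minus strand): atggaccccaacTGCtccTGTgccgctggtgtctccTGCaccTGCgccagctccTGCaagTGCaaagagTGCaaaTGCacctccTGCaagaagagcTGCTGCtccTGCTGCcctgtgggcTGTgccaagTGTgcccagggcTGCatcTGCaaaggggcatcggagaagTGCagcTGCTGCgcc
MT1X (chr16:56682541-56684046, plus strand): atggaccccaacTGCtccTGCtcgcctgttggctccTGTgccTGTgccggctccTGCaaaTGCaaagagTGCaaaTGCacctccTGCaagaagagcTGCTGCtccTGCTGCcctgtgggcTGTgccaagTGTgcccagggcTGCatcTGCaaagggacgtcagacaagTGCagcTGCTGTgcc
MT1E (chr16:56625852-56626968, plus strand): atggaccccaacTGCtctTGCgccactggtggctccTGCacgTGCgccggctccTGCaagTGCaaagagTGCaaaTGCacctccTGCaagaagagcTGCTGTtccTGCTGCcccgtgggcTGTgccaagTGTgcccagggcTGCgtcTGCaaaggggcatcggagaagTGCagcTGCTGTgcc
Between MT2A and MT1G 174 of 183 bases were identical (95.1%), and between MT2A and MT1X 169 of 183 (92.3%). Over whole transcripts, untranslated parts included, the copies were easier to tell apart. In the principal transcript of MT2A, 95.1% of all words of 50 bases occur in no transcript of another gene, and in MT1F, MT1E, MT1M and MT1A the share was 92.9% to 96.4%. For MT1G it was 79.8%. For MT1X it was 54.9%, and AC026461.1, a noncoding gene on the same strand that overlaps it, was among the genes that share words with it. With words of 100 bases the share was 80.9% for MT1X and 100% for the other metallothionein members. Reads of MT1X and MT1G can therefore be lost or split more easily than those of MT2A, and AC026461.1 had 0 counts in all 3 libraries. Neither the read length nor the handling of reads with several matches is given in the sources used here.

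Promoters were available for 4 of the 9 members in RefSeq (GRCh38.p14). The 250 bases before the start are shown for the 2 metallothionein genes among them and for SLC30A1. The ratios of these 2 metallothionein genes were alike between the adipose media and differed against control-CM. Capitals mark the core of the metal response element, searched as TGCACNC or TGCGCNC on both strands.
MT2A (chr16:56608334-56608583, plus strand): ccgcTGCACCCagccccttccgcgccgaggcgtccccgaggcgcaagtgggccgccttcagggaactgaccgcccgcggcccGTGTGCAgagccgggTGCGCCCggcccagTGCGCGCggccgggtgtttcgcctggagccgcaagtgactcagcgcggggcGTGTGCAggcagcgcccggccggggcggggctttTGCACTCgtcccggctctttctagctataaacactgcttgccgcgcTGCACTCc
MT1X (chr16:56682220-56682469, plus strand): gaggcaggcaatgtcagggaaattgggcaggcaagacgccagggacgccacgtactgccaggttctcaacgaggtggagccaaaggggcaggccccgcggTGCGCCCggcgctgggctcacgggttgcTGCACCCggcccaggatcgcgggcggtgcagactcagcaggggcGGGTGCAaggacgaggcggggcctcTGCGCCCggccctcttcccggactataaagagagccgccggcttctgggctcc
SLC30A1 (chr1:211579162-211579411, minus strand): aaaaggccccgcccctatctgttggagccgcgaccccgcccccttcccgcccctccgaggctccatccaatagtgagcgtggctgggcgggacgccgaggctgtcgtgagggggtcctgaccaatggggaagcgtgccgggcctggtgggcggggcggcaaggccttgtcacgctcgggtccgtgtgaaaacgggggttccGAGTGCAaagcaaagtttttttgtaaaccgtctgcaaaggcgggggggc
The window of MT2A held 7 matches, that of MT1X 4, that of SLC30A1 1 and that of MTF1 0. Among 35116 promoters of this length, 24.8% held at least 1 match, 0.370% at least 4 and 0.0313% at least 7. The core of the antioxidant response element, searched as TGACNNNGC on both strands, had 1 match each in MT2A, MT1X and SLC30A1, none of them overlapping a marked match, and 10.9% of all promoters held at least 1. The window of MT2A lies wholly inside the GENCODE bounds of its gene, and those of MT1X and MTF1 reach into theirs. These bounds include starts upstream of the RefSeq one. For SLC30A1 the RefSeq start lies upstream of the GENCODE bounds, and the bases between the 2 were not searched. The match counts thus come from windows placed differently against the GENCODE genes. A match is a stretch of letters and not a site shown to be bound.

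Library totals lay between 14174241 and 16965584 counts. Levels are given in CPM, counts relative to the size of the library, after TMM scaling, a method that sets libraries to a common scale through the bulk of their genes. With 1 library per medium no difference has a replicate check, and no p-value was computed. Ranges in parentheses are 95% intervals that cover counting error only. A gene with a mean of at least 50 counts over the 3 libraries is called measured, and a measured gene is called higher or lower if its ratio reached 1.5-fold and its interval excluded 1. The 3 comparisons share libraries with each other, so their results are not independent. Of 10 genes typical of LNCaP, among them KLK3 and FOLH1, all 10 were measured. In PPAT-CM over control-CM 0 of them were higher and 4 lower, beside 12.1% and 8.74% of all measured genes. In PPAT-CM over PVAT-CM 0 were higher and 5 lower, beside 8.58% and 6.09%. None was called in PVAT-CM over control-CM, beside 3.04% and 3.46%. Of the 5 adipocyte markers, ADIPOQ, LEP and FABP4 had 0 counts in every library, while the summed counts were 90 in PPAT-CM, 27 in PVAT-CM and 13 in control-CM, nearly all from PLIN1. The 5 leukocyte markers summed to 5, 6 and 6 counts and the 5 endothelial markers to 36, 16 and 27, in the same order. COL1A2 and DCN, which mark fibroblasts, had 0 counts in every library, while the 5 fibroblast markers summed to 531 in PPAT-CM, 367 in PVAT-CM and 783 in control-CM, most of it COL1A1. Mitochondrially encoded genes took 15.5% of the counts in PPAT-CM, 21.1% in PVAT-CM and 30.8% in control-CM. The part of these markers in the ratios below was not tested, and for the mitochondrially encoded genes the scaling was repeated without them.

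Of the 9 members 6 were measured, and these were MT2A, MT1G, MT1X, MT1F, MTF1 and SLC30A1. MT2A had the highest level of them per transcript length in all 3 libraries. MT2A and MT1X were higher in PPAT-CM than in PVAT-CM, MT1X was lower in PVAT-CM than in control-CM, and MTF1 was higher in PPAT-CM than in control-CM. No other measured member was called in any of the comparisons.

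These counts were set beside the share of all genes called in the same way. In PPAT-CM over control-CM 1 of 6 measured members was higher and 0 were lower, beside 12.1% of all 12256 measured genes higher and 8.74% lower, so that the members' count was near that background. In PVAT-CM over control-CM 0 of 6 were higher and 1 was lower, beside 3.04% and 3.46% of all genes. In PPAT-CM over PVAT-CM 2 of 6 were higher and 0 were lower, beside 8.58% and 6.09%. At 2-fold no member was called in any comparison, beside 3.95% of all genes higher and 2.76% lower in the first, 0.457% and 0.457% in the second, and 2.46% and 1.52% in the third. The median log2 ratio of the 6 was 0.20, -0.09 and 0.37 in these comparisons, beside 0.03, 0.02 and 0.02 over all measured genes. These values depend on the scaling. With library totals alone 24.1% were higher and 4.41% lower in the first comparison, 6.53% and 1.78% in the second, and 12.1% and 4.2% in the third, and the median of all genes moved to 0.27, 0.15 and 0.13. The median of the 6 members was then 0.44, 0.04 and 0.48, so that in the second comparison its sign turned. With upper quartile factors 9.78% were higher and 11.0% lower in the first comparison.

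**Figure D1:**
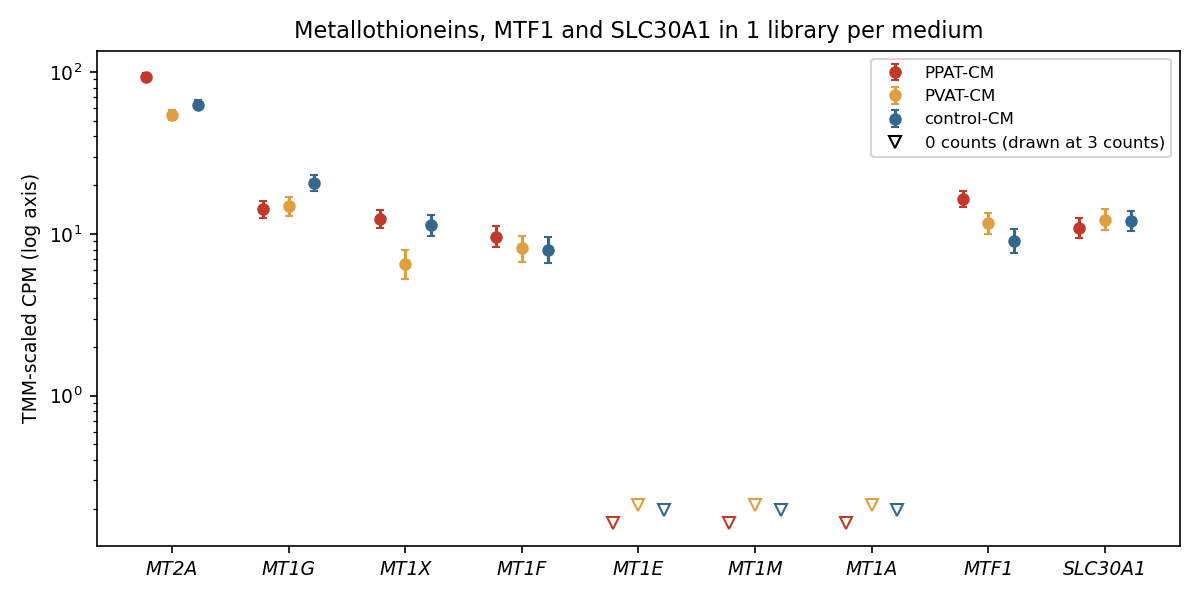
TMM-scaled CPM (log axis) of the 9 members in the PPAT-CM, PVAT-CM and control-CM libraries, with 95% counting intervals, 1 library per point; open triangles mark genes with 0 counts, drawn at what 3 counts are worth. MT2A stands at 93.8, 54.5 and 63.0 CPM in that order, and MT1E, MT1M and MT1A have no reads in any library.

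MT2A (ENSG00000125148, chromosome 16, 56608199 to 56609497, plus strand, GRCh38) encodes the metallothionein that is found in most human cells. It had 1725 counts in PPAT-CM, 777 in PVAT-CM and 955 in control-CM, or 93.8, 54.5 and 63.0 CPM. The PPAT-CM library was thus the highest and the PVAT-CM library the lowest, and no interval touched another. MT2A was 1.72-fold higher in PPAT-CM than in PVAT-CM (1.58 to 1.88), and 4.46% of the 12256 measured genes had a larger ratio in that comparison. Between PPAT-CM and control-CM the ratio was 1.49 (1.38 to 1.61), which fell just short of the 1.5-fold threshold. Scaling by library totals alone, which moves the median log2 ratio of all genes from 0.03 to 0.27 in this comparison, put it past the threshold at 1.76 (1.63 to 1.91). In PVAT-CM it stood at 0.866 of its control-CM level (0.786 to 0.953). In bulk libraries such as these, fewer cells with a transcript and less of it per cell cannot be told apart.

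MT1X (ENSG00000187193, chromosome 16, 56682424 to 56684196, plus strand), another metal-inducible isoform, had 228 counts in PPAT-CM, 93 in PVAT-CM and 171 in control-CM, or 12.4, 6.52 and 11.3 CPM. The PVAT-CM library stood apart on the low side, while the intervals of the other 2 libraries overlapped. MT1X was 1.73-fold lower in PVAT-CM than in control-CM (1.33 to 2.25), where 1.26% of measured genes had a smaller ratio. Relative to PVAT-CM it was 1.90-fold higher in PPAT-CM (1.49 to 2.45), where 3.01% of measured genes had a larger ratio. Its ratio of PPAT-CM to control-CM was 1.10 (0.898 to 1.35). Both MT1X calls held under each of the other 4 scalings.

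MT1G (ENSG00000125144, chromosome 16, 56666731 to 56668065, minus strand) is the only one of the members in the cluster on that strand. It had 261 counts in PPAT-CM, 212 in PVAT-CM and 313 in control-CM, or 14.2, 14.9 and 20.6 CPM. Here the control-CM library was the highest, and the intervals of the adipose media overlapped. MT1G was below its control-CM level by 1.45-fold in PPAT-CM (1.23 to 1.72) and by 1.39-fold in PVAT-CM (1.16 to 1.66), in both cases short of the threshold. With upper quartile factors the first of these ratios was 1.53-fold lower and passed it. The ratio of PPAT-CM to PVAT-CM was 0.955 (0.793 to 1.15).

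MT1F (ENSG00000198417, chromosome 16, 56657694 to 56660698, plus strand) had 177 counts in PPAT-CM, 116 in PVAT-CM and 121 in control-CM, or 9.63, 8.14 and 7.98 CPM. The intervals of all 3 libraries overlapped. Its ratios were 1.21 for PPAT-CM to control-CM (0.952 to 1.53), 1.02 for PVAT-CM to control-CM (0.784 to 1.33) and 1.18 for PPAT-CM to PVAT-CM (0.931 to 1.51), and every one of these intervals included 1.

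MT1E, MT1M and MT1A had 0 counts in all 3 libraries. A count of 0 allows up to 3 counts, worth 0.163 CPM in PPAT-CM, 0.210 in PVAT-CM and 0.198 in control-CM, and this limit covers counting error only. Most of their sequence could have been told apart from the other copies, since between 92.9% and 94.7% of their 50-base words were unique. No fold can be given for them.

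MTF1 (ENSG00000188786, chromosome 1, 37809567 to 37859620, minus strand), the factor that switches metallothionein genes on, had 302 counts in PPAT-CM, 166 in PVAT-CM and 138 in control-CM, or 16.4, 11.6 and 9.10 CPM. The PPAT-CM library was the highest and did not overlap the others, and the intervals of PVAT-CM and control-CM overlapped. MTF1 was 1.81-fold higher in PPAT-CM than in control-CM (1.47 to 2.22), and 5.86% of measured genes had a larger ratio. Without the mitochondrially encoded genes in the TMM scaling the ratio was 1.79 (1.46 to 2.21). The ratio of PPAT-CM to PVAT-CM was 1.41 (1.16 to 1.72), and that of PVAT-CM to control-CM was 1.28 (1.01 to 1.62). With library totals alone the first of these reached 1.52 and passed the threshold.

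SLC30A1 (ENSG00000170385, chromosome 1, 211571568 to 211578742, minus strand), which exports zinc from the cell and is itself a known target of MTF1, had 200 counts in PPAT-CM, 175 in PVAT-CM and 183 in control-CM, or 10.9, 12.3 and 12.1 CPM. All intervals overlapped. Its ratios were 0.901 for PPAT-CM to control-CM (0.734 to 1.11), 1.02 for PVAT-CM to control-CM (0.822 to 1.26) and 0.886 for PPAT-CM to PVAT-CM (0.720 to 1.09). A fold of 1.5 in either direction lay outside each of these counting intervals, and the spread between cultures was not measured.

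**Figure D2:**
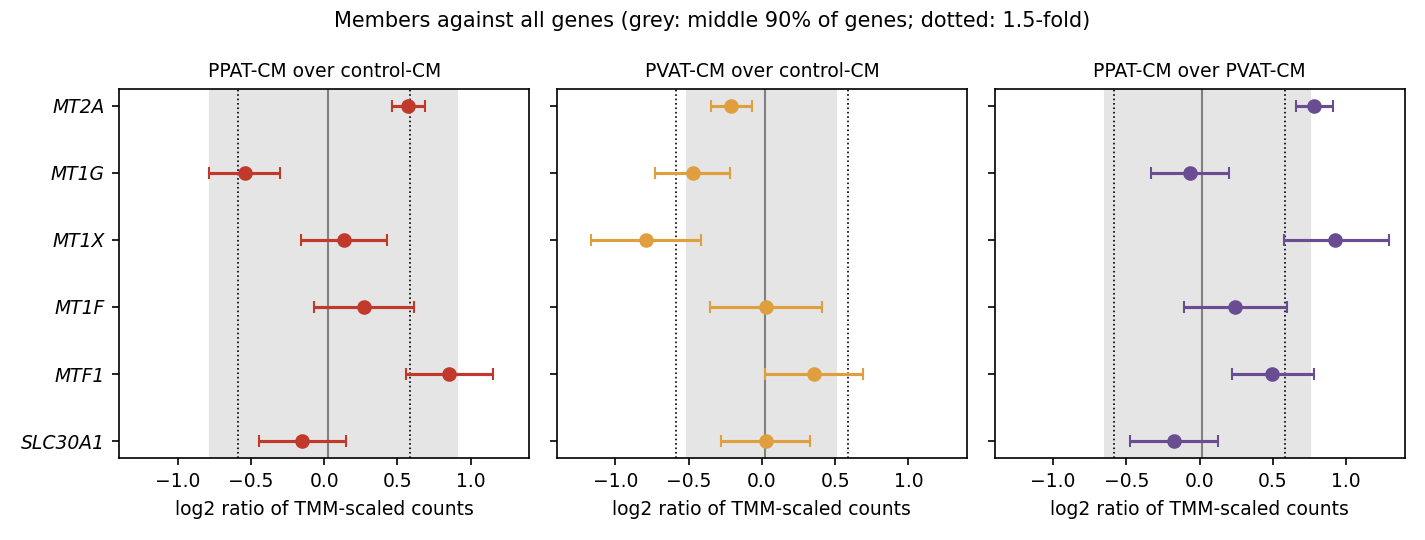
Log2 ratios of TMM-scaled counts of the 6 measured members with 95% counting intervals, in PPAT-CM over control-CM, PVAT-CM over control-CM and PPAT-CM over PVAT-CM; the grey band holds the middle 90% of the 12256 measured genes, the grey line is their median and dotted lines mark 1.5-fold. MT1X lies outside the band in PVAT-CM over control-CM, and MT2A and MT1X lie outside it in PPAT-CM over PVAT-CM.

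The make-up of the metallothionein pool does not depend on scaling, since it compares genes within a library. The 7 metallothionein members together had 2391 counts in PPAT-CM, 1198 in PVAT-CM and 1560 in control-CM. MT2A took 72.1% of them in PPAT-CM (70.3 to 73.9, exact binomial interval), 64.9% in PVAT-CM (62.1 to 67.6) and 61.2% in control-CM (58.7 to 63.6). MT1G took 10.9% in PPAT-CM (9.69 to 12.2), 17.7% in PVAT-CM (15.6 to 19.98) and 20.1% in control-CM (18.1 to 22.1). The PPAT-CM library therefore held the largest MT2A share and the smallest MT1G share, and its intervals did not overlap those of the other libraries for either gene. Shares within a library are parts of the same total, so a larger MT2A share lowers the others. The scaled level of MT1G itself was alike in the adipose media, with a ratio of PPAT-CM to PVAT-CM of 0.955 (0.793 to 1.15). MT1X took 9.54%, 7.76% and 11.0%, and MT1F 7.40%, 9.68% and 7.76%, in the same order.

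**Figure D3:**
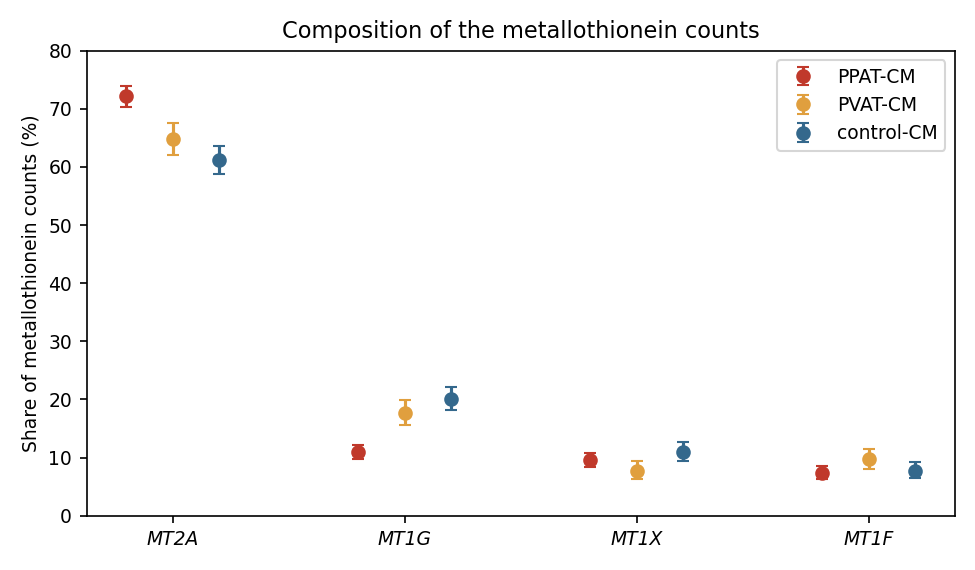
Share of the summed metallothionein counts (%) taken by MT2A, MT1G, MT1X and MT1F in the PPAT-CM, PVAT-CM and control-CM libraries, with 95% exact binomial intervals. MT2A reaches 72.1% in PPAT-CM against 61.2% in control-CM, and MT1G 10.9% against 20.1%.

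Ratios between pairs of members show the same divergence. There were 6.61 MT2A counts for each MT1G count in PPAT-CM, 3.67 in PVAT-CM and 3.05 in control-CM. The PPAT-CM value was 2.17 times that of control-CM (1.81 to 2.60) and 1.80 times that of PVAT-CM (1.48 to 2.20). MT2A and MT1X differed between the adipose media by like amounts, as their count ratio was 7.57 in PPAT-CM and 8.35 in PVAT-CM, a change of 0.906 (0.701 to 1.17). The factor and the exporter diverged as well, with 1.51 MTF1 counts for each SLC30A1 count in PPAT-CM, 0.949 in PVAT-CM and 0.754 in control-CM. For that pair the PPAT-CM value was 2.00 times that of control-CM (1.51 to 2.66).

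Levels were compared between genes after division by the length of the principal transcript. Per kilobase, MT2A stood at 119 CPM in PPAT-CM, 69.3 in PVAT-CM and 80.1 in control-CM. MT1G came next, at 35.0, 36.6 and 50.8 CPM per kilobase, followed by MT1X at 27.6, 14.5 and 25.1 and MT1F at 13.95, 11.8 and 11.6. The intervals of neighbours in this order overlapped for MT1G and MT1X in PPAT-CM and for MT1X and MT1F in PVAT-CM. With the longest protein-coding transcript in place of the principal one, MT1X came first of that pair in PPAT-CM, at 23.0 against 22.6 for MT1G. MTF1 and SLC30A1 were far below, at 2.06 and 1.99 CPM per kilobase in PPAT-CM, 1.46 and 2.24 in PVAT-CM and 1.14 and 2.20 in control-CM. MTF1 was thus level with the exporter in PPAT-CM and below it, with no overlap, in the other libraries.

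The 7 metallothionein members lie side by side on chromosome 16, and 12 further metallothionein genes and pseudogenes were looked up by name, none of which was measured. MT3 (ENSG00000087250, chromosome 16, 56589074 to 56591088, plus strand), a metallothionein best known from brain and for being little induced by metals, had the widest range of ratios among the members and these 12. It had 1 count in PPAT-CM, 13 in PVAT-CM and 52 in control-CM, or 0.0544, 0.912 and 3.43 CPM. The intervals of the 3 libraries did not overlap, with PPAT-CM lowest and control-CM highest. MT3 was 63.0-fold lower in PPAT-CM than in control-CM (10.8 to 2537), 3.76-fold lower in PVAT-CM than in control-CM (2.02 to 7.53) and 16.8-fold lower in PPAT-CM relative to PVAT-CM (2.52 to 713). Of 847 genes with 42 to 62 counts in control-CM, MT3 was the 1 gene with at most 1 count in PPAT-CM. In PVAT-CM 10 of the 847, MT3 among them, had at most 13 counts. The range in control-CM and these limits, which equal the counts of MT3, were set after its values were seen. All 50-base words of its transcript were unique to it, and its mean of 22 counts was below the minimum used for calls.

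The pseudogene MT1DP had 24 counts in PPAT-CM, 32 in PVAT-CM and 29 in control-CM, and its ratio of PPAT-CM to control-CM was 0.683 (0.380 to 1.21). MT1XP1, a processed copy of MT1X on chromosome 1, had 2, 5 and 5 counts in the same order. MT1H had 1 count in control-CM and 0 in both adipose media. The other 8, which included MT4, MT1B and MT1L, were at 0 in every library.

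**Figure D4:**
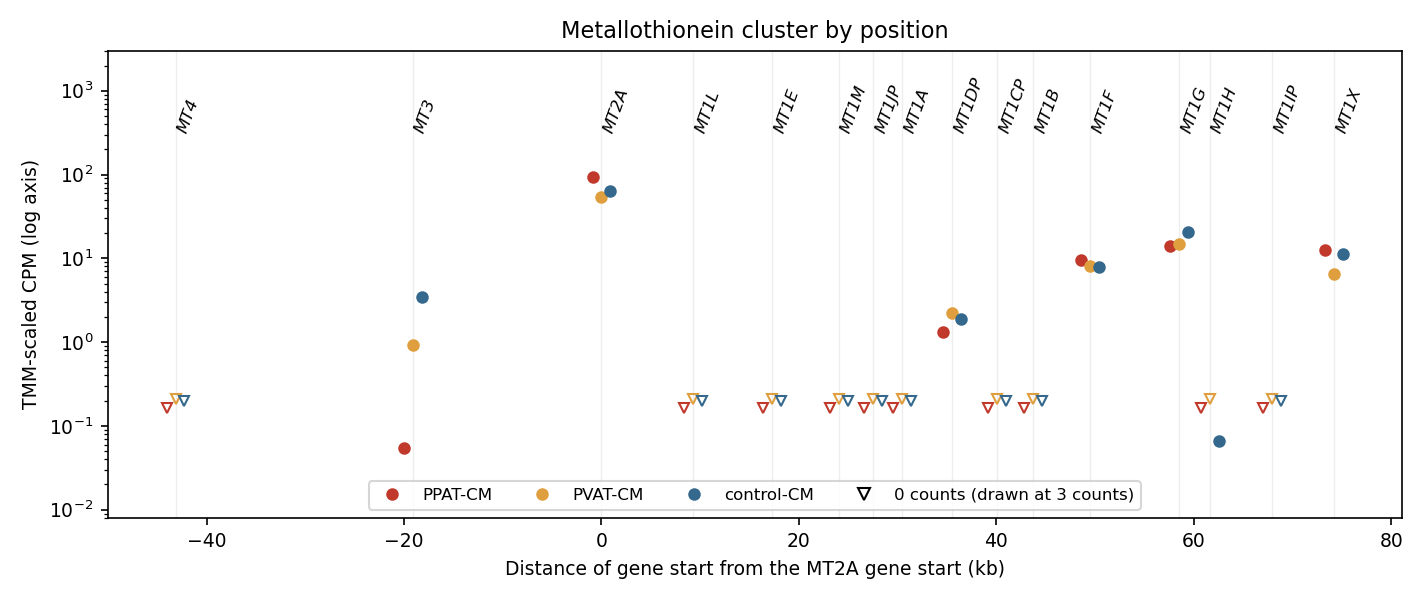
TMM-scaled CPM (log axis) of the genes and pseudogenes of the metallothionein cluster in the PPAT-CM, PVAT-CM and control-CM libraries, by distance of the gene start from that of MT2A in kb; open triangles mark 0 counts, drawn at what 3 counts are worth. Expressed genes (MT2A, MT1F, MT1G, MT1X) and genes without reads are interspersed along the cluster, and MT3 has 1 count in PPAT-CM, against 52 in control-CM.

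Genes on either side of the cluster were described for comparison. Of 14 neighbours listed 13 were found by name and 10 measured, and 2 were higher in PPAT-CM over control-CM and 0 were lower, beside 12.1% and 8.74% of all measured genes. None was called in PVAT-CM over control-CM, beside 3.04% and 3.46%. In PPAT-CM over PVAT-CM 1 was higher and 0 were lower, beside 8.58% and 6.09%, and CPNE2 passed as a further higher gene with library totals. NLRC5, an activator of MHC class I genes, had 591 counts in PPAT-CM, 106 in PVAT-CM and 125 in control-CM and was 3.90-fold higher in PPAT-CM than in control-CM (3.21 to 4.77). CPNE2, a calcium-dependent membrane-binding protein of the copine family, was 1.76-fold higher in that comparison (1.43 to 2.18). The closest measured neighbours, BBS2 and NUP93, were not called in any comparison, with log2 ratios of -0.33 and -0.17 for PPAT-CM over control-CM.

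Zinc is moved out of the cytosol by exporters of the SLC30 family and into it by importers of the SLC39 family. Of the 10 exporters of the SLC30 family 6 were measured, SLC30A1 among them, and none was called in any comparison. Of all measured genes 12.1% were higher and 8.74% lower in PPAT-CM over control-CM. The shares were 3.04% and 3.46% in PVAT-CM over control-CM and 8.58% and 6.09% in PPAT-CM over PVAT-CM. The exporters' count of 0 of 6 was thus near that background. The median log2 ratio of the 6 exporters was 0.04 in PPAT-CM over control-CM, 0.22 in PVAT-CM over control-CM and -0.21 in PPAT-CM over PVAT-CM. SLC30A4, which loads zinc into vesicles, had 8370 counts in PPAT-CM, 9443 in PVAT-CM and 9523 in control-CM, or 455, 662 and 628 CPM. Its level in PPAT-CM was below that in PVAT-CM by 1.46-fold, short of the threshold, and with upper quartile factors it passed at 1.51-fold. With library totals SLC30A9 passed as higher in PPAT-CM over control-CM, at 1.59-fold. Of the 14 importers of the SLC39 family 10 were measured. In PPAT-CM over control-CM 2 of the 10 were higher and 0 lower, beside 12.1% and 8.74% of all measured genes. In PVAT-CM over control-CM again 2 were higher and 0 lower, beside 3.04% and 3.46%. In PPAT-CM over PVAT-CM none was called, beside 8.58% and 6.09%. The difference between importers and exporters was not tested. In PPAT-CM over control-CM SLC39A11 also passed as higher with library totals, and SLC39A4 as a lower one with upper quartile factors.

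SLC39A6, an importer in the plasma membrane also known as an estrogen-regulated gene in breast cancer, had 2186 counts in PPAT-CM, 1267 in PVAT-CM and 894 in control-CM. It was 2.02-fold higher in PPAT-CM (1.87 to 2.18) and 1.51-fold higher in PVAT-CM (1.38 to 1.64) than in control-CM, and with upper quartile factors the second ratio was 1.49 and no longer passed. SLC39A7, which releases zinc from the endoplasmic reticulum, had 1306, 852 and 559 counts in the same order. It was 1.93-fold higher in PPAT-CM (1.74 to 2.13) and 1.62-fold higher in PVAT-CM (1.46 to 1.81) than in control-CM. Both genes were highest in PPAT-CM and lowest in control-CM. SLC39A1, the importer most studied in prostate zinc uptake, had 38, 25 and 25 counts and was not measured. Whether reads of SLC39A1 were lost to overlapping or similar genes was not tested.

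**Figure D5:**
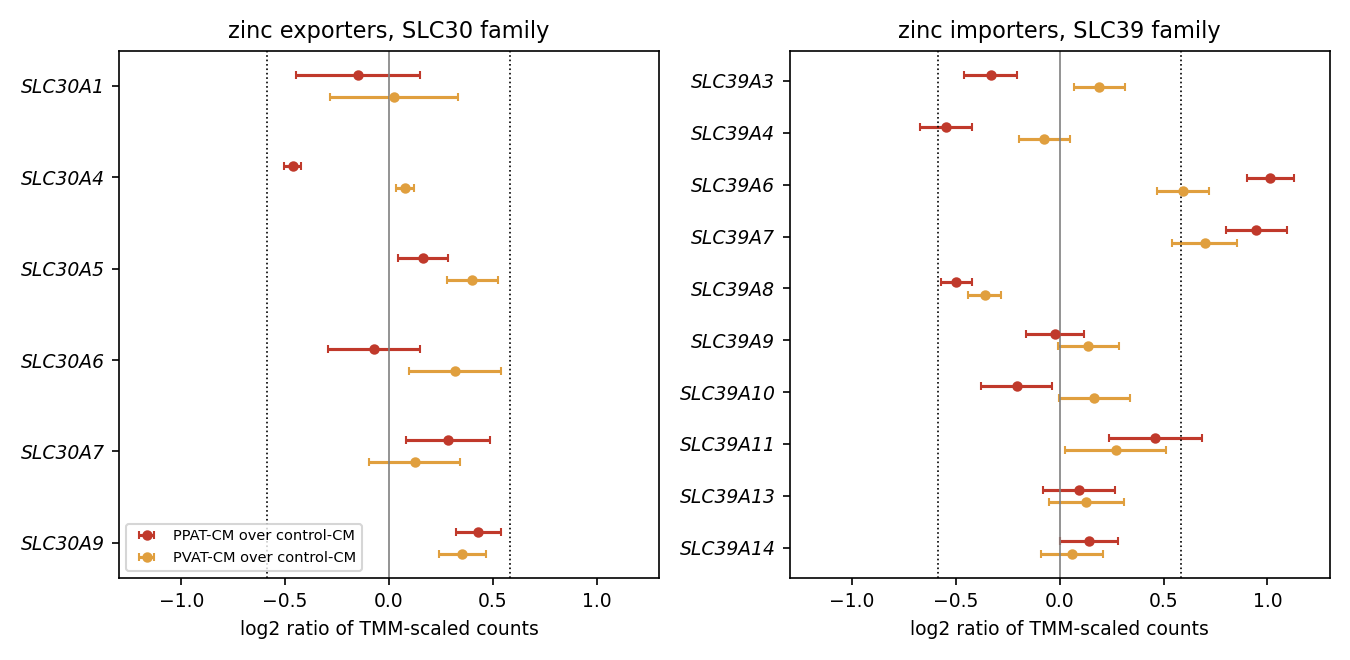
Log2 ratios of TMM-scaled counts of the measured zinc exporters (left) and importers (right), in PPAT-CM over control-CM and PVAT-CM over control-CM, with 95% counting intervals; dotted lines mark 1.5-fold. SLC39A6 and SLC39A7 lie beyond 1.5-fold in both comparisons, and no exporter does in either.

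Other genes reported as MTF1 targets, mostly in mouse, were mixed. Of 9 listed 8 were measured, and in PPAT-CM over control-CM 3 were higher and 1 was lower, beside 12.1% and 8.74% of all measured genes, with a median log2 ratio of 0.06. None was called in PVAT-CM over control-CM, beside 3.04% and 3.46% of all genes, and CEBPA passed there as higher with library totals. In PPAT-CM over PVAT-CM 2 were higher and 1 was lower, beside 8.58% and 6.09% of all genes. SELENOH, a selenoprotein of the nucleolus, had 1074 counts in PPAT-CM, 479 in PVAT-CM and 459 in control-CM and was 1.93-fold higher in PPAT-CM than in control-CM (1.73 to 2.16). GCLC, the catalytic subunit of the first enzyme of glutathione synthesis, had 4972 counts in PPAT-CM, 1343 in PVAT-CM and 1961 in control-CM, and CEBPA, a transcription factor of differentiation, was 1.60-fold higher in PPAT-CM than in control-CM (1.27 to 2.03). NDRG1, a stress-responsive gene, was 1.71-fold lower in PPAT-CM than in control-CM (1.56 to 1.88), which held under 3 of the other 4 scalings and not with library totals. SLC39A10, which MTF1 represses in mouse, was not called, with a log2 ratio of -0.21 in PPAT-CM over control-CM.

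Copper is the other metal that metallothioneins buffer. Of 11 copper handling genes 9 were measured, with 3 higher and 1 lower in PPAT-CM over control-CM, beside 12.1% and 8.74% of all measured genes. There was 1 higher and 0 lower in PVAT-CM over control-CM, beside 3.04% and 3.46%, and 1 higher and 1 lower in PPAT-CM over PVAT-CM, beside 8.58% and 6.09%. SLC31A1, the main copper importer, had 1373 counts in PPAT-CM, 912 in PVAT-CM and 609 in control-CM, and was 1.86-fold higher in PPAT-CM (1.69 to 2.05) and 1.59-fold higher in PVAT-CM (1.44 to 1.77) than in control-CM. The copper chaperones ATOX1 and SCO1 were 1.58-fold (1.42 to 1.76) and 1.61-fold higher (1.42 to 1.82) in PPAT-CM than in control-CM. COX17, which carries copper to cytochrome c oxidase in mitochondria, was 2.06-fold lower in PPAT-CM than in control-CM (1.94 to 2.18). In PPAT-CM over PVAT-CM the genes called were SCO1, 1.51-fold higher, and COX17, 1.55-fold lower. That call of SCO1 did not hold with upper quartile factors or without mitochondrially encoded genes in the scaling, and that of COX17 did not hold with library totals.

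Other gene groups share inducers with the metallothioneins. Of 12 metal and oxidative stress genes 9 were measured, with 3 higher and 1 lower in PPAT-CM over control-CM, 2 higher and 1 lower in PVAT-CM over control-CM, and 0 higher and 1 lower in PPAT-CM over PVAT-CM. The shares of all measured genes were 12.1% and 8.74%, 3.04% and 3.46%, and 8.58% and 6.09% in these comparisons. GCLM, a regulatory subunit for glutathione synthesis, had 860 counts in PPAT-CM, 617 in PVAT-CM and 400 in control-CM, NQO1, a quinone reductase, had 1547, 886 and 680, and the heat shock gene HSPA6 had 4, 61 and 100. SLC7A11, a cystine transporter, had 1330, 1536 and 744. HMOX1, which degrades heme, was the third gene higher in PPAT-CM than in control-CM, at 1.55-fold (1.27 to 1.90), and with upper quartile factors it stood at 1.47 and no longer passed. With library totals HSPA6 was no longer lower and NQO1 passed as higher in PVAT-CM over control-CM, and SLC7A11 passed as higher in PPAT-CM over control-CM. With upper quartile factors, and with TMM without mitochondrially encoded genes, SLC7A11 passed as lower in PPAT-CM over PVAT-CM.

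The glucocorticoid response genes were described in the same way. Of 10 glucocorticoid response genes 9 were measured, with 3 higher and 1 lower in PPAT-CM over control-CM, beside 12.1% and 8.74% of all measured genes. None was called in PVAT-CM over control-CM, beside 3.04% and 3.46%. In PPAT-CM over PVAT-CM 3 were higher and 2 lower, beside 8.58% and 6.09%. NFKBIA, an inhibitor of NF-kappaB, was 2.64-fold higher (2.33 to 3.00) and CEBPD, a transcription factor, 2.20-fold higher (2.04 to 2.38), while ZBTB16, a zinc finger repressor, was 2.96-fold lower (2.20 to 4.04), all in PPAT-CM over control-CM. No call of this list changed under the other 4 scalings. FKBP5, a chaperone partner of steroid receptors, had 650, 154 and 155 counts in PPAT-CM, PVAT-CM and control-CM. Beside ZBTB16, TSC22D3, a glucocorticoid-induced leucine zipper, was the other gene lower in PPAT-CM over PVAT-CM, with a log2 ratio of -0.72.

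Genes with the pattern nearest to that of MT2A were found among 10964 measured protein-coding genes, by the distance over the log2 ratios of PPAT-CM and of PVAT-CM to control-CM. The 5 nearest were CAMK2N1, FARP1, C1R, EML4 and TBC1D8, at distances of 0.0348 to 0.0467, and 37 genes lay within 0.1. For SLC30A1 the 5 nearest included TCEAL4, GTF2A2, AFF1 and HCFC2, and 563 genes lay within 0.1.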

How the data were processed

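The authors deposited 1 table of raw read counts by gene. The submitters' processing notes name FastQC, Trimmomatic, HISAT2, featureCounts, edgeR and the GRCh38 genome, and their versions, settings and strand use were not given in the sources used here. Each of the 3 count columns was matched to its sample by title, and the medium was taken from the treatment label of the sample. Of 58884 rows 58611 had a GENCODE release 29 name. Counts were scaled with TMM in edgeR 4.0.16 (R 4.3.3), and 12256 genes had a mean of at least 50 counts. A pseudocount of 0.5 was used for log2 ratios. Folds are ratios of scaled counts with exact conditional binomial (Clopper-Pearson) 95% intervals, levels have exact Poisson intervals, and changes of pair ratios have Woolf intervals. Without molecular identifiers, reads are not independent, so the intervals may be too narrow. The edgeR quasi-likelihood test cannot be run with 1 library per medium. The calls and ratio intervals of PPAT-CM over control-CM were tested on simulated counts with known folds, known library sizes and counting error only. The scaling and the other steps were not part of that test. Python 3.11.15, numpy 2.4.6, pandas 2.3.3, scipy 1.17.1 and Biopython 1.88 were used. DESeq2 1.42.0 size factors were an alternative. The members, gene lists and naming rule (all members, other metallothioneins, and up to 4 called genes of each list with the largest log2 ratio, and the 5 genes nearest in pattern to MT2A and to SLC30A1) were chosen with earlier results of these data known. BBS2, NUP93, SLC30A4, SLC30A9, SLC39A1, SLC39A4, SLC39A10, SLC39A11, HMOX1 and TSC22D3 were named in addition, after their values were seen. The lengths of the longest transcripts were added after the data were seen. Of the genes the naming rule gives, 1 is not reported here.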

Additional observations from a re-analysis of the deposited data

How the results depend on the processing

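No paired analysis was possible because each medium had 1 library, and for the same reason no library could be left out. The number of members called moved under these settings. In PPAT-CM over control-CM, 1 member was higher, against 2 with library totals (MT2A in addition to MTF1) and 0 at a 2-fold threshold, and 0 were lower, against 1 with upper quartile factors (MT1G). Of all measured genes 12.1% were higher there, against 24.1% with library totals and 3.95% at 2-fold. The share lower was 8.74%, against 11.0% with upper quartile factors. In PVAT-CM over control-CM, 1 member was lower, against 0 with a mean of at least 200 counts, which leaves MT1X out, and 0 at 2-fold. Of all measured genes 3.46% were lower there, against 0.457% at 2-fold. In PPAT-CM over PVAT-CM, 2 members were higher, against 3 with library totals (MTF1 in addition), 1 with a mean of at least 200 counts and 0 at 2-fold. Of all measured genes 8.58% were higher there, against 12.1% with library totals and 2.46% at 2-fold. The share of all genes with a mean of at least 200 counts was not computed. The median log2 ratio of the members in PPAT-CM over control-CM was 0.58 with a mean of at least 200 counts, which leaves 3 members, against 0.20. The cause of the moves with the scaling was not tested. The other settings tried were DESeq2 size factors, TMM without mitochondrially encoded genes and a pseudocount of 5. A mean of at least 10 counts, no filter and the ratio with no interval were tried too. They left these counts and medians the same, where each applied. For a count of members, same means within 1.5 times. For a median, it means between the median lower end and the median upper end of the members' counting intervals. These ends do not form an interval of the median itself. Of 18 member ratios, 17 stayed within their counting interval with library totals and 18 under each other scaling. Of 36 calls of the list genes given by the naming rule, 33 held with library totals and 34 with upper quartile factors. Among the same genes 4 calls were added with library totals and 1 with upper quartile factors. Genes named in addition, such as HMOX1 and TSC22D3, are not among the 36. With library totals the members' median log2 ratio was 0.44, 0.04 and 0.48, against 0.20, -0.09 and 0.37, in PPAT-CM over control-CM, PVAT-CM over control-CM and PPAT-CM over PVAT-CM.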
